A study of Mus musculus with 6 samples.

Results

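YAP1 and TAZ, the transcriptional coactivators at the end of the Hippo pathway, the TEAD factors that carry them to DNA, and the VGLL cofactors that bind the same factors are encoded by 8 genes described here: Yap1 (ENSMUSG00000053110), Wwtr1 (ENSMUSG00000027803, which encodes TAZ), Tead1 (ENSMUSG00000055320), Tead2 (ENSMUSG00000030796), Tead3 (ENSMUSG00000002249), Tead4 (ENSMUSG00000030353), Vgll3 (ENSMUSG00000091243) and Vgll4 (ENSMUSG00000030315). The members were all CUT&Tag regions that the deposited annotation assigns to one of these symbols, with no use of their read densities. They came to 99 of 170890 regions for T set TGF-b against NC, 19 of 52723 for S set TGF-b against NC, 73 of 180118 for T set siRNA with TGF-b against TGF-b and 16 of 52579 for S set siRNA with TGF-b against TGF-b, or 207 table entries in all. All 8 genes had a region in the T set. Among S set regions, Wwtr1 had none for TGF-b against NC, Tead4 had none for siRNA against TGF-b, and Tead2 had none in either.

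CUT&Tag uses an antibody to bring a transposase to chromatin, so that reads mark where the protein bound by the antibody sits. The 6 libraries came from mouse primary cardiac fibroblasts of the heart and formed a T set and an S set of 3 libraries each, with 1 library per group: NC, TGF-b, and TGF-b with siRNA, labelled SiTAZ in the T set and SiSRF in the S set. TGF-b is the growth factor that drives cardiac fibroblasts towards myofibroblasts, and the comparisons ask how chromatin association of a mechanosensing factor differs with TGF-b and with the siRNA on top of it. The sample labels name no antibody. The study's methods list antibodies to TAZ and to SRF for this assay, from which the letters T and S are taken here to stand for those factors. NC is not spelled out in the labels, the study's text speaks of siRNA against Piezo2 where the labels name TAZ and SRF, and the series description mentions Cre-mediated loss of Tet3 that no sample label carries. The sample labels give no genotype, strain, age or number of cultures. The study's methods put its mice on a C57BL/6 J background and do not say how many cultures stand behind a library. With 1 library per group, no difference below has a replicate check and no test of a treatment was possible. As a check of the cell type, 7 of 10 fibroblast marker genes had a T set region within 3 kb of a start site in the table of TGF-b against NC, as did 7 of 9 cardiomyocyte, 4 of 5 endothelial and 2 of 4 macrophage markers, so association with chromatin did not single out fibroblast genes and says nothing of expression.

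When the Hippo kinases are inactive, YAP1 and TAZ enter the nucleus, bind TEAD1 to TEAD4 and switch on genes of growth, matrix and the cytoskeleton. They have no DNA-binding domain of their own. VGLL4 competes with them for the TEAD surface and dampens their output, and VGLL3 is a TEAD cofactor of the same vestigial-like family. In heart fibroblasts the pathway responds to stiffness and stretch and is tied to activation into myofibroblasts.

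The promoters of the members that the results turn on are shown first, since the 2 kb windows there hold the densest T set regions of Wwtr1 and Tead1, although 70 of the 99 T set regions for TGF-b against NC lay in introns and 7 in promoters. The windows run from 250 bases before to 50 bases after the start site on the strand of the gene and come from RefSeq on GRCm38.p6. Of the 8 members, 6 had an entry, all but Tead1 and Tead4. Capitals mark GGAATG or its reverse complement CATTCC, the core of the MCAT element that TEAD factors recognise, on either strand. The start site of the Wwtr1 window equals that of the transcript nearest to the T set promoter region, while those of Tead3, Vgll3 and Yap1 lay 12, 68 and 206 bases from the transcript used in the tables.
Wwtr1 (chr3:57575861-57576160, minus strand): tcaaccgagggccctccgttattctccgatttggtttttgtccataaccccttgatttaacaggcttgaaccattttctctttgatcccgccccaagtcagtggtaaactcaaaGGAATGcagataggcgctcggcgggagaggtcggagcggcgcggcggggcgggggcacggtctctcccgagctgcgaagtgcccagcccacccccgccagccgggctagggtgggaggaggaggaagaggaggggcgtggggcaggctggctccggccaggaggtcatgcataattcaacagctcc
Tead3 (chr17:28350756-28351055, minus strand): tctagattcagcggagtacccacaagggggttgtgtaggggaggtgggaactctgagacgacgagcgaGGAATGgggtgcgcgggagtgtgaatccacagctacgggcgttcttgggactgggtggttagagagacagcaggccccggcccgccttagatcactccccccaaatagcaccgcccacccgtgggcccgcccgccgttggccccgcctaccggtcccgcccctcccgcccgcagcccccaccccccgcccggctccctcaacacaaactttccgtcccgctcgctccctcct
Vgll3 (chr16:65814939-65815238, plus strand): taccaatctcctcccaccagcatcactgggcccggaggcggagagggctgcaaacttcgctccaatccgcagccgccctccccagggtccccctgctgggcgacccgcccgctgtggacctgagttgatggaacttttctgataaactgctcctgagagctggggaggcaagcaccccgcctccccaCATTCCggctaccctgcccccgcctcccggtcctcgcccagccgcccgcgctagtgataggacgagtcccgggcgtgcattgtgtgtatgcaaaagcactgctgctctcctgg
Yap1 (chr9:8004547-8004846, minus strand): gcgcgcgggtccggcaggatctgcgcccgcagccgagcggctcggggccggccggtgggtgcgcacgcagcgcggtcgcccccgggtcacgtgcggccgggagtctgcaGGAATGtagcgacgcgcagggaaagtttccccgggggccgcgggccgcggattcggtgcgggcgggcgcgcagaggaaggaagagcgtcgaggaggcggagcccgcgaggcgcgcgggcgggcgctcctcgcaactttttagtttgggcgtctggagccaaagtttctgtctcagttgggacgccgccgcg
The element began at base -136 of the Wwtr1 window, -182 of the Tead3 window, -63 of the Vgll3 window and -141 of the Yap1 window, counted from the start site. It was also present in the window of Vgll4, at -82, and absent from that of Tead2. The Tead2 window lay 15517 bases from the nearest transcript used in the tables, so it is not the promoter those regions refer to. Tead3 had further windows, not shown, of which one held the element at -123, -114 and 2 and another held none. Of all 32851 promoter windows of the same length, 14.7% held it, and so did 7 of the 9 windows of the members, at 5 of the 6 genes with a window. The windows of the members had a GC content of 61.3 to 75.3%, against a median of 52.7% for all windows. The AP-1 element TGANTCA, found in 7.81% of windows, and the CArG box that SRF recognises, found in 1.63%, were in none of the 9 windows of the members. These letters describe the annotated promoters and not the regions themselves, whose sequence was not used here because the densities were placed on GRCm39, a later build than the genome at hand.

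The values are normalised read densities as deposited, that is, reads plus 1 per kb of a 2 kb window, rescaled by the authors between the libraries of a table. Recovered reads are the whole reads behind them. Each log2 ratio compares the later library with the earlier one, and its 95% interval covers counting error only. Depth was low, with a median of 7 to 10 reads per called region in the T set libraries and 10 to 13 in the S set libraries, and library totals were not used here. Coordinates of regions are on GRCm39, and the distance is from the middle of a region to the nearest annotated start site.

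Over all members, the densities with TGF-b were close to those of NC in the T set on the authors' scale, while regions of the whole table were on balance lower. Of the 99 regions, 19 were at least 2-fold higher, or 19.2% against 17.3% of all regions, and 29 were at least 2-fold lower, or 29.3% against 42.1%. The median log2 ratio was -0.04 (95% rank interval -0.22 to 0.16) for the members and -0.65 for all regions. The 99 regions form 73 groups of overlapping windows, and the rank interval counts every region as separate. Centring on all regions turned the balance, with a median of 0.615, 28 regions higher and 13 lower. For the S set, 4 of 19 regions were at least 2-fold higher, against 17.4% of all, and 6 were at least 2-fold lower, against 26.7%. The median there was -0.47 (-1.46 to 0.29) against -0.20 over all regions, with the sign turning to 0.09 once the authors' rescaling was undone and to 1.24 over the 6 regions within 10 kb of a start site, none of them at least 2-fold lower. When siRNA was added, 26 of 73 T set regions were at least 2-fold higher, or 35.6% against 49.7%, and 14 were at least 2-fold lower, or 19.2% against 16.2%. The median of 0.30 (-0.18 to 0.76) lay below the 0.97 of all regions, and its sign turned to -0.17 without the rescaling and to -0.67 after centring on all regions. S set regions with siRNA came to 2 of 16 that were at least 2-fold higher, against 15.1%, and 1 that was at least 2-fold lower, against 27.8%, with medians of -0.23 (-0.75 to 0.63) for members and -0.21 for all. Setting read counts of 3 or fewer to 3 left each median as it was. Members and all regions were not matched for depth. With TGF-b, 27 of the 99 T set regions held 3 or fewer reads in a library, against 49.3% of all regions. With siRNA it was 28 of 73, against 57.9%. In the S set it was 7 of 19 with TGF-b and 1 of 16 with siRNA, against 27.5% and 26.8%. Centring subtracts the T set medians of -0.65 with TGF-b and 0.97 with siRNA from every T set ratio, and single intervals below are on the authors' scale unless said to be centred. With TGF-b, 20 of the 99 T set intervals lay above 0 and 22 below it, against 33 and 10 after centring, and with siRNA 21 of 73 lay above and 16 below, against 7 and 31.

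**Figure D1:**
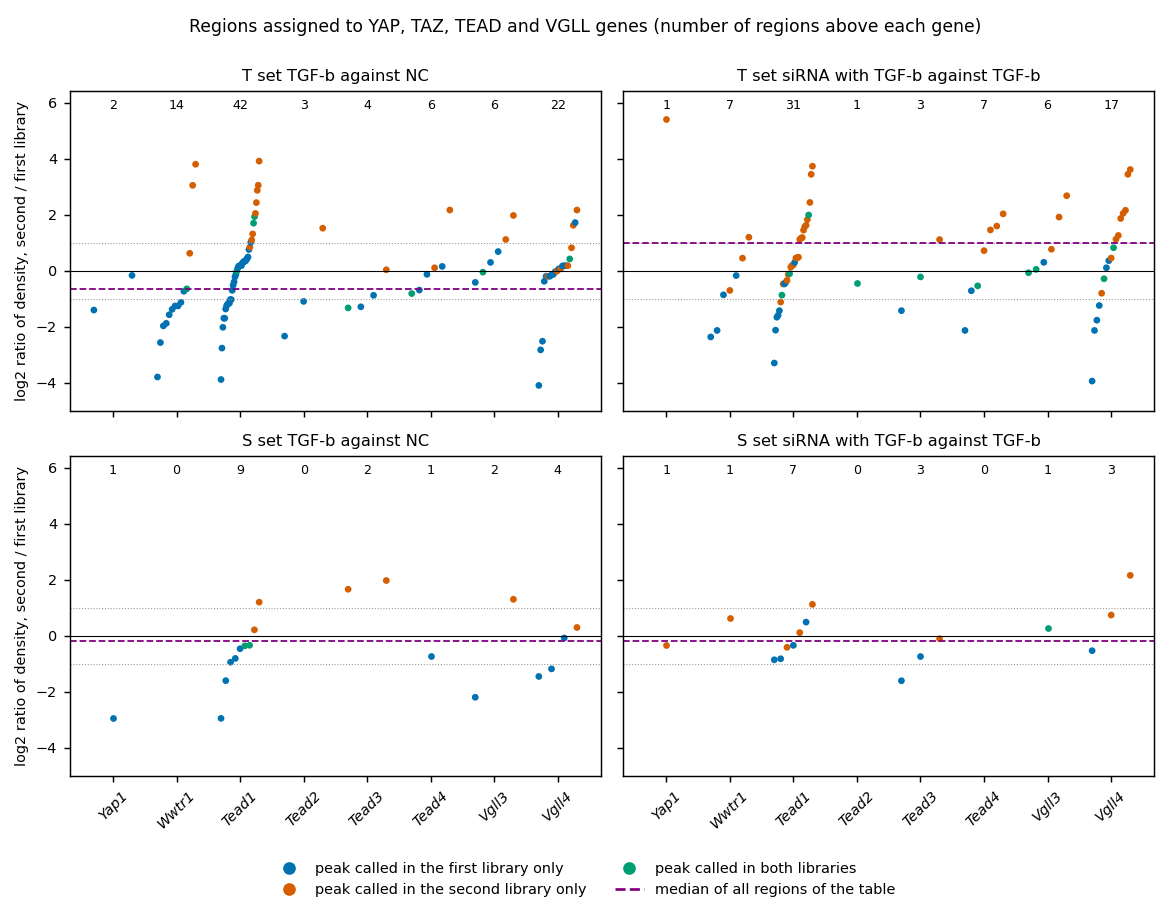
Log2 ratio of normalised read density in every region of each gene, one panel per comparison, with points coloured by the library in which the peak was called and the number of regions above each gene. The dashed line is the median of all regions, at -0.65 and 0.97 in the T set panels and -0.20 and -0.21 in the S set panels, and the dotted lines mark 2-fold. Regions called in the first library only sit mostly below 0 and those called in the second only mostly above it, and points far from 0 can rest on a library with no reads.

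The direction of a ratio followed the library in which the peak had been called, for members as for all regions. In the T set, the 67 member regions called in NC alone had a median log2 ratio of -0.42, against -1.27 over the 117769 such regions of the table. The 24 called with TGF-b alone had a median of 1.41, the same as the 1.41 over all 43854. The 8 called in both had a median of -0.04 against -0.0010. With siRNA against TGF-b, the medians of members called in TGF-b alone, in siRNA alone and in both were -1.43, 1.18 and -0.17, and those of all regions were -1.42, 1.62 and -0.0043. Counts past 2-fold therefore partly restate the calls.

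Wwtr1, the gene of TAZ, had its densest T set region at its own promoter, at chr3:57483187-57483491 and 8 bases upstream of the start site shown above. The density was 21.2 in NC and 32.6 with TGF-b, from 41 and 65 reads, a log2 ratio of 0.62 (0.07 to 1.19). The median of the 17451 regions within 1 kb of a start site was 0.09 in this comparison. The peak had been called with TGF-b and not in NC, and all regions so called had a median of 1.41. With siRNA the density was 27.9 with TGF-b alone and 15.4 with siRNA, from 65 and 25 reads, a log2 ratio of -0.86 (-1.56 to -0.24), beside a median of 0.03 for the 16915 regions that near to a start site. The peak was not called with siRNA either, and all regions called with TGF-b and not with siRNA had a median of -1.42. In reads, which are not scaled to depth, TGF-b was the highest of the 3 libraries and siRNA the lowest. A further promoter region, 802 bases upstream and called with siRNA, went from a density of 21.2 to 13.0, from 49 and 21 reads, a log2 ratio of -0.71 (-1.48 to -0.02), and its window overlaps that of the first.

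In the introns of Wwtr1 the direction with TGF-b followed the calls. Regions called in NC alone were lower and those called with TGF-b were higher. Of 12 intronic regions, 9 were at least 2-fold lower, 2 at least 2-fold higher and 1 within 2-fold, with a median of -1.32, and the intervals of the 9 lay below 0, as 3 of them did after centring. That is 75% lower against 42.1% of all regions, but windows overlap, so that the 9 regions form 6 groups of windows and 2 of the 9 hold the same reads. With the floor of 3 reads, 8 were at least 2-fold lower and 1 at least 2-fold higher. All 9 had been called in NC alone, and the 10 regions of that kind had a median of -1.48, close to the -1.27 of all NC-only regions. The densest was at chr3:57457931-57458007, 25280 bases downstream of the start site, with 56 reads in NC and 18 with TGF-b, a log2 ratio of -1.58 (-2.39 to -0.87). At chr3:57466379-57466448 the reads went from 15 to 0, which is at least 3.64-fold lower with the floor of 3 reads. These 2 regions were chosen after their values were seen. A pair of intronic regions called with TGF-b, whose windows overlap in part, had the reverse order. Reads in NC, TGF-b and siRNA were 0, 6 and 0 at chr3:57427707-57427893 and 0, 11 and 1 at chr3:57429461-57429559. With TGF-b these were at least 1.98-fold and at least 3.33-fold higher, and with siRNA the first was at least 1.28-fold lower and the log2 ratio of the second was -2.14 (-5.60 to -0.42). The S set held a single Wwtr1 region, in an intron at chr3:57412877-57412959, with 6 reads with TGF-b and 9 with siRNA, a log2 ratio of 0.63 (-0.73 to 2.13).

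Yap1, the other coactivator, was sparsely covered. Its T set regions for TGF-b against NC were 2 intronic regions called in NC, of which the nearer to a start site, at chr9:8003368-8003469, had densities of 5.28 and 4.69 from 10 and 8 reads, a log2 ratio of -0.17 (-1.50 to 1.09). The other had 8 and 2 reads, a log2 ratio of -1.41 (-3.88 to 0.23). With siRNA the sole region lay in an exon at chr9:8001468-8001568, 186 bases past a start site, where the reads went from 0 with TGF-b to 30 with siRNA. That is a density of 0.43 against 18.1, at least 10.7-fold higher with the floor of 3 reads, in the opposite direction to the Wwtr1 promoter. NC was not part of the table that holds it. The S set held 1 exonic region near the start site shown above, at chr9:8004237-8004394, with 19 reads with TGF-b and 14 with siRNA, a log2 ratio of -0.35 (-1.35 to 0.61), and 1 intronic region with 4 reads in NC and 0 with TGF-b.

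**Figure D2:**
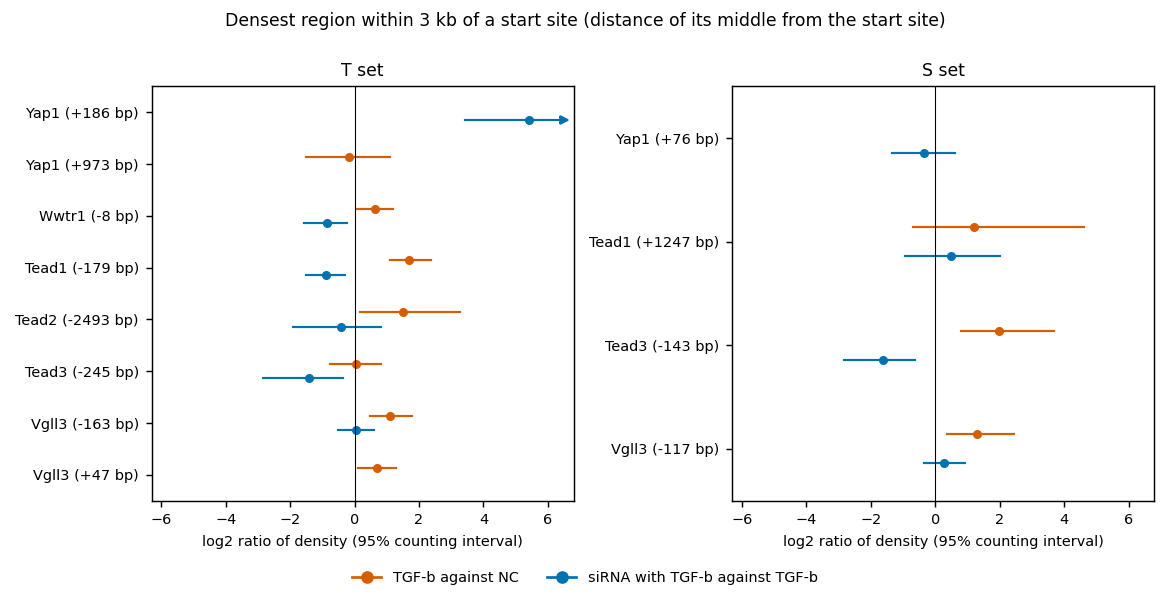
Log2 ratio of density with its 95% counting interval for the densest region within 3 kb of a start site of each member, in the T set (left) and the S set (right), with the distance to the start site beside the gene. Wwtr1 and Tead1 in the T set and Tead3 in the S set sit above 0 with TGF-b and below 0 with siRNA, and the Yap1 interval at the top left has no upper end because the TGF-b library held 0 reads.

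Tead1, the most widely occupied member, is a TEAD factor of heart and muscle. It had 42 of the 99 T set regions for TGF-b against NC. Only 0.504% of the 22813 genes with a region in that table had as many or more, and its longest transcript in the tables spans 220142 bases. The densest region was the promoter at chr7:112278072-112278620, 179 bases upstream of a start site, which was called in all 3 T set libraries. The density was 12.6 in NC and 40.7 with TGF-b, from 24 and 81 reads, a log2 ratio of 1.69 (1.08 to 2.39). With siRNA it went from 34.7 to 18.9, from 81 and 31 reads, a log2 ratio of -0.87 (-1.50 to -0.31). Both promoters, of Tead1 and Wwtr1, thus had a higher density with TGF-b than in NC and than with siRNA, and the Tead1 ratio with TGF-b was the larger, with intervals that overlap by a narrow margin. No S set region lay at this promoter, and the S set region nearest to any Tead1 start site, in an exon at chr7:112440003-112440174, held 1, 6 and 8 reads in NC, TGF-b and siRNA.

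Inside Tead1, regions with TGF-b spread in both directions. Of the 28 regions in its introns, 6 were at least 2-fold higher, 8 at least 2-fold lower and 14 within 2-fold, or 21.4% and 28.6% past 2-fold against 17.3% and 42.1% of all regions, with a median of 0.13. Among these 28, 5 intervals lay above 0 and 4 below it, against 9 and 2 after centring. The 31 Tead1 regions called in NC alone had a median of -0.22, and the 14 of Vgll4 of -0.14, both nearer to 0 than the -1.48 of the 10 in Wwtr1 and the -1.27 of all such regions. A further pair of annotated promoter regions, 1830 and 1322 bases upstream of an internal start site, shared 1 window and went from a density of 10.1 to 3.11, from 20 and 5 reads, a log2 ratio of -1.70 (-3.26 to -0.53). The main promoter and this internal one had opposite signs, although after centring the interval of the internal one, -1.05 (-2.60 to 0.12), includes 0. With siRNA, 10 of 24 intronic regions were at least 2-fold higher and 4 at least 2-fold lower, or 41.7% and 16.7% against 49.7% and 16.2% of all regions, with a median of 0.45 against 0.97. The intervals of 7 lay above 0 and of 4 below it, against 3 and 8 after centring. One of them, at chr7:112413058-112413298, had 14, 13 and 39 reads in NC, TGF-b and siRNA, and its log2 ratios were -0.02 (-1.09 to 1.04) and 1.99 (1.17 to 2.95).

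A stretch 15525 to 63776 bases upstream of Tead1 also held regions assigned to it, although the annotation puts them in introns of the neighbouring gene 2310014F06Rik. There were 10 of them for TGF-b against NC in the T set, with log2 ratios from -2.77 to 3.05 and a median of 0.51, and 5 in each of the other tables. At chr7:112262850-112262987 the T set reads were 4, 38 and 25 in NC, TGF-b and siRNA, which gave 3.05 (1.91 to 4.76) with TGF-b and -0.11 (-0.85 to 0.59) with siRNA on the log2 scale. At chr7:112214642-112214857 they were 6, 24 and 5, with log2 ratios of 1.93 (0.84 to 3.34) and -1.60 (-3.14 to -0.46). The siRNA interval lay below 0 at the second site and at chr7:112255419-112255528, where the reads went from 23 to 3, a log2 ratio of -2.13 (-4.13 to -0.83). After centring that of the first site did too, at -1.08 (-1.82 to -0.38). The S set reads at 3 sites 40323 to 41399 bases upstream, the densest S set regions of the gene, were 15 to 22 in NC, 16 to 25 with TGF-b and 11 to 13 with siRNA, and the intervals of all 6 log2 ratios included 0. The windows of the 3 sites overlap, so these ratios share reads and are not separate observations. An S set region at chr7:112262859-112263141, overlapping the first T set site, had 3, 6 and 4 reads and log2 ratios of 0.21 (-1.47 to 2.26) and -0.35 (-2.17 to 1.27).

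**Figure D3:**
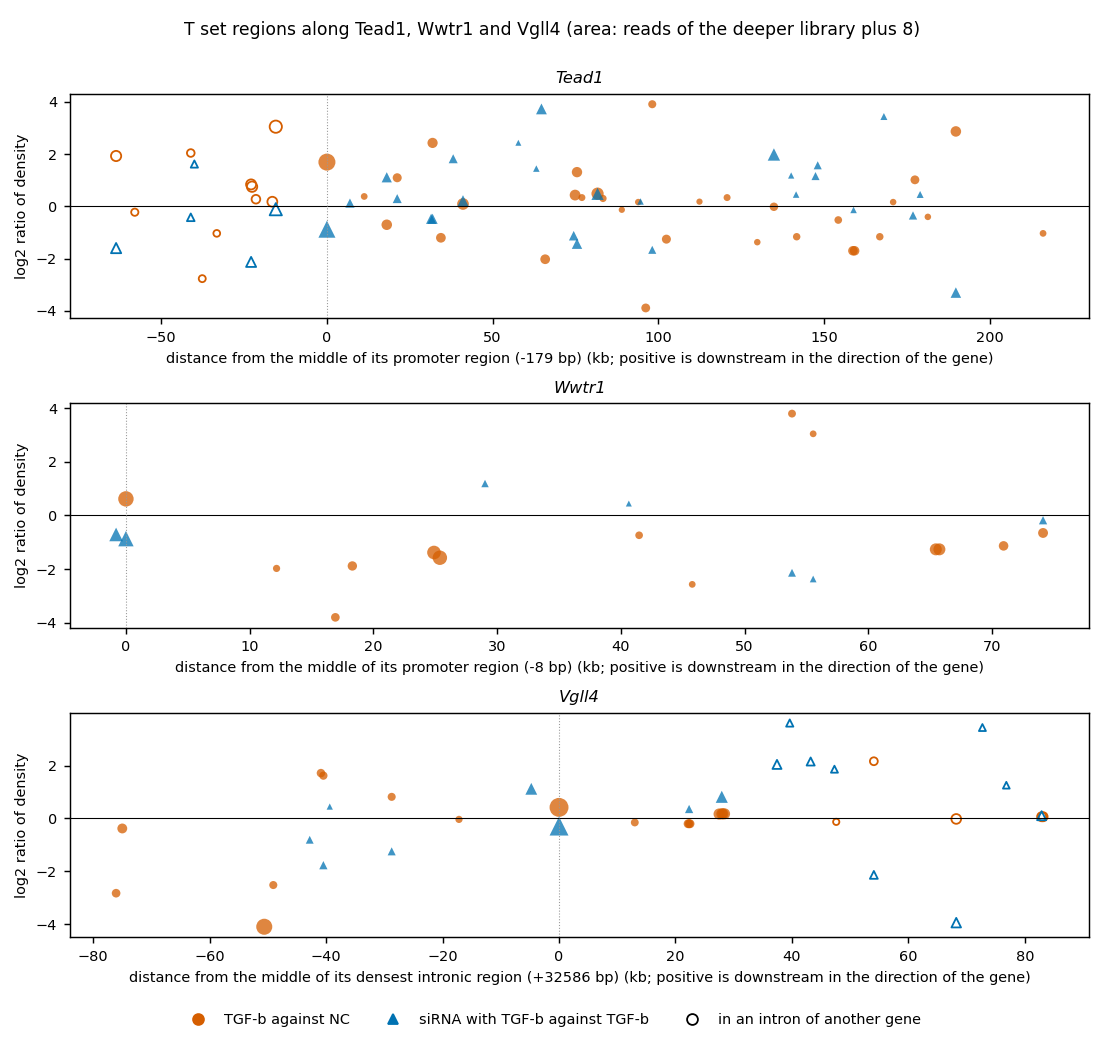
Log2 ratio of density of each T set region along Tead1, Wwtr1 and Vgll4 against its distance in kb from the middle of the promoter region (Tead1, Wwtr1) or of the densest intronic region (Vgll4). Circles are TGF-b against NC and triangles siRNA with TGF-b against TGF-b, area grows with reads, and open symbols lie in introns of a neighbouring gene. The large circles in the Wwtr1 introns sit below 0, those of Tead1 on both sides of 0, and the single large Vgll4 circle at the lower left is the region that went from 71 to 3 reads.

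Tead3 had a promoter region in both sets, as did Vgll3. In the T set the promoter region at chr17:28569988-28570084, 245 bases upstream of the start site, had a density of 12.9 in NC and 13.1 with TGF-b, from 25 reads in each, a log2 ratio of 0.03 (-0.76 to 0.82). With siRNA it went from 11.1 to 4.11, from 25 and 6 reads, a log2 ratio of -1.43 (-2.84 to -0.35). The overlapping S set region at chr17:28569852-28570016 had densities of 3.05 in NC and 11.9 with TGF-b, from 4 and 28 reads, a log2 ratio of 1.97 (0.79 to 3.69), and with siRNA went from 14.1 to 4.62, from 28 and 8 reads, a log2 ratio of -1.61 (-2.84 to -0.63). Both sets therefore had fewer reads with siRNA than with TGF-b, and only the S set had more reads with TGF-b than in NC. The 2 regions have their own middles, so their 2 kb windows overlap and are not identical.

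The densest Tead3 regions lay in an intron. In the T set the region at chr17:28559646-28559744, 4377 bases upstream of a start site, had 96 reads in NC and 40 with TGF-b, densities of 49.3 and 20.1 and a log2 ratio of -1.29 (-1.84 to -0.78). Its neighbour at chr17:28560046-28560306, whose window overlaps, had 94, 38 and 23 reads in NC, TGF-b and siRNA, which gave log2 ratios of -1.33 (-1.89 to -0.81) and -0.22 (-0.99 to 0.49). After centring these were -0.68 (-1.24 to -0.16) and -1.20 (-1.96 to -0.48), so the siRNA reading depends on the scaling. The overlapping S set region at chr17:28560187-28560355 had 5, 27 and 15 reads, for log2 ratios of 1.65 (0.54 to 3.19) and -0.75 (-1.69 to 0.11). With TGF-b this intron was thus lower in the T set and higher in the S set, and both intervals exclude 0.

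Tead2 and Tead4, the remaining TEAD factors, had shallow regions. Tead2 had 3 T set regions whose windows overlap, all in an intron. The nearest to a start site, at chr7:44878080-44878401, had 4, 12 and 6 reads in NC, TGF-b and siRNA, giving log2 ratios of 1.52 (0.17 to 3.28) and -0.43 (-1.90 to 0.82), and the other 2 held 4 or 5 reads in NC and 1 or 0 with TGF-b. Tead4 had no region within 3 kb of a start site. Its densest T set region with TGF-b against NC was intronic, at chr6:128242249-128242375, with 16, 8 and 3 reads and log2 ratios of -0.82 (-2.09 to 0.29) and -0.72 (-2.76 to 0.83). Another intronic region of Tead4, at chr6:128226475-128226598, had 2, 11 and 1 reads, for which the log2 ratios were 2.16 (0.62 to 4.63) and -2.14 (-5.60 to -0.42). One more, at chr6:128262872-128262986, had 11, 11 and 5 reads, with 0.10 (-1.07 to 1.27) and -0.54 (-2.14 to 0.78) as its log2 ratios. After centring, the siRNA ratio at chr7:44878080-44878401 of Tead2 was -1.41 (-2.88 to -0.15). That at chr6:128242249-128242375 was then -1.69 (-3.73 to -0.14), and that at chr6:128262872-128262986 was -1.51 (-3.11 to -0.19). The other T set regions of Tead4 held at most 10 reads, and its sole S set region, with 9 reads in NC and 8 with TGF-b, lay in a 3' UTR at chr6:128299397-128299488.

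**Figure D4:**
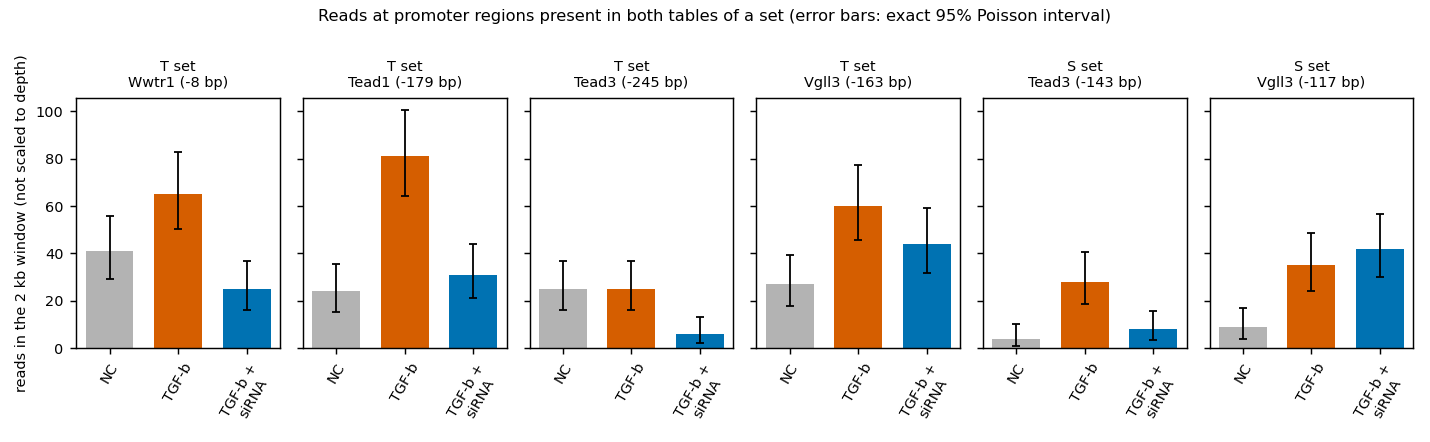
Reads in the 2 kb window of the promoter regions found in both tables of a set, in NC, TGF-b and TGF-b with siRNA, not scaled to depth, with exact 95% Poisson intervals as error bars. TGF-b is the highest bar for Wwtr1, Tead1 and Vgll3 in the T set and for Tead3 in the S set, with 65, 81, 60 and 28 reads, and for Vgll3 in the S set the siRNA bar of 42 reads stays beside the 35 of TGF-b.

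Vgll3, the cofactor whose promoter is shown above, had a promoter region that was higher with TGF-b in both sets. Over the whole gene, 2 of its 6 T set regions were at least 2-fold higher, or 33.3% against 17.3%, and 4 within 2-fold, and the only other S set region, in an intron at chr16:65638642-65638777, went from 5 reads to 1, a log2 ratio of -2.20 (-5.63 to -0.25). In the T set the promoter region at chr16:65611791-65612170, 163 bases upstream of the start site, had a density of 14.1 in NC and 30.4 with TGF-b, from 27 and 60 reads, a log2 ratio of 1.11 (0.49 to 1.79). The overlapping S set region at chr16:65611843-65612210 had 6.06 and 14.9, from 9 and 35 reads, a log2 ratio of 1.29 (0.37 to 2.44). The medians of all regions within 1 kb of a start site were 0.09 and 0.33 in these comparisons. Both promoter regions had been called with TGF-b and not in NC, and all regions so called had medians of 1.41 and 0.70. With siRNA the T set density was 25.8 with TGF-b and 26.6 with siRNA, from 60 and 44 reads, a log2 ratio of 0.04 (-0.52 to 0.59), and the S set density was 17.9 and 21.6, from 35 and 42 reads, a log2 ratio of 0.28 (-0.36 to 0.92). Both intervals include 0 on the authors' scale, but centring on all regions gave -0.93 (-1.49 to -0.38) in the T set and 0.49 (-0.15 to 1.14) in the S set, so the T set reading depends on the scaling. The T set density was highest in the adjoining exon at chr16:65612515-65612609, with 37 and 61 reads and a log2 ratio of 0.68 (0.11 to 1.28), in a window that overlaps the promoter. An intronic region at chr16:65615759-65616101 had 47, 46 and 31 reads in NC, TGF-b and siRNA. Its log2 ratio was -0.05 (-0.64 to 0.53) with TGF-b and -0.08 (-0.74 to 0.56) with siRNA, and after centring these were 0.60 (0.01 to 1.18) and -1.05 (-1.71 to -0.41).

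Vgll4, which limits YAP1 and TAZ at TEAD, had 22 T set regions for TGF-b against NC and none within 3 kb of a start site. The densest was in an intron at chr6:114865966-114866416, 32586 bases downstream, called in all 3 T set libraries with 72, 102 and 59 reads, the deepest of all member regions with TGF-b. Its densities were 37.5 and 50.1 for NC and TGF-b, or 0.42 (-0.01 to 0.86) on the log2 scale, and 43.5 and 35.5 for TGF-b and siRNA, a log2 ratio of -0.29 (-0.76 to 0.16). Both intervals include 0 on the authors' scale but not after centring, at 1.07 (0.64 to 1.51) with TGF-b and -1.26 (-1.73 to -0.81) with siRNA. The 22 regions form 13 groups of overlapping windows, and some hold the same reads. Of the 13 intronic regions, the intervals of 2 lay above 0 and of 3 below it, against 4 and 3 after centring. Those of 3 downstream regions, which hold the same reads, lay above 0 only after centring. Of the 22 regions, 16 were within 2-fold, 3 higher and 3 lower, or 13.6% each way against 17.3% and 42.1%, and the median was 0.02 against -0.65. The lowest, in an intron at chr6:114916650-114916973, went from 71 reads in NC to 3 with TGF-b, densities of 35.1 and 2.05 and a log2 ratio of -4.10 (-6.08 to -2.91). That region, chosen after its values were seen, had the lowest log2 ratio of the member regions with TGF-b in the T set. The densest S set region of Vgll4 for this contrast, in an intron at chr6:114940711-114940848, had 9 and 13 reads, a log2 ratio of -0.09 (-1.23 to 1.15).

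Beyond the 3' end of Vgll4, 5 of its T set regions for TGF-b against NC and 9 for siRNA against TGF-b lay in introns of Atg7, an autophagy gene next to it. With siRNA, 6 of those 9 were at least 2-fold higher and 2 at least 2-fold lower, or 66.7% and 22.2% against 49.7% and 16.2% of all regions, with a median of 1.86 against 0.97. In the TGF-b and siRNA libraries, each of these regions held at most 20 reads. At chr6:114797875-114798084, also chosen after its values were seen, the reads were 21, 20 and 0 in NC, TGF-b and siRNA, so that siRNA was at least 3.82-fold lower than TGF-b. Just downstream of Vgll4, at chr6:114838158-114838331, the T set reads were 26, 29 and 37, with log2 ratios of 0.17 (-0.58 to 0.94) and 0.82 (0.13 to 1.52). The S set region there went from 5 reads with TGF-b to 24 with siRNA, densities of 2.91 and 12.9 and a log2 ratio of 2.15 (1.01 to 3.70). Both sets had more with siRNA at this site, although the T set ratio was -0.15 after centring on all regions.

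Regions of the T set and the S set that overlap numbered 5 for TGF-b against NC and 8 for siRNA against TGF-b, at Tead1, Tead3, Vgll3 and Vgll4. Both intervals excluded 0 with the same sign at the Vgll3 promoter with TGF-b, and at the Tead3 promoter and downstream of Vgll4 with siRNA. They excluded 0 with opposite signs at the Tead3 intron with TGF-b. Signs also differed at Tead1, 41251 bases upstream with TGF-b and 40167 and 23052 bases upstream with siRNA, where the S set intervals included 0 on the authors' scale. At the first of these the S set ratio was 0.20 without the authors' rescaling, so the signs then no longer differed. With siRNA that site went from 10 reads to 5 in the T set, a log2 ratio of -0.42 (-2.03 to 0.94), and from 22 to 11 in the S set, a log2 ratio of -0.87 (-1.95 to 0.10). With 1 library per group, differences between the sets were left without a test.

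**Figure D5:**
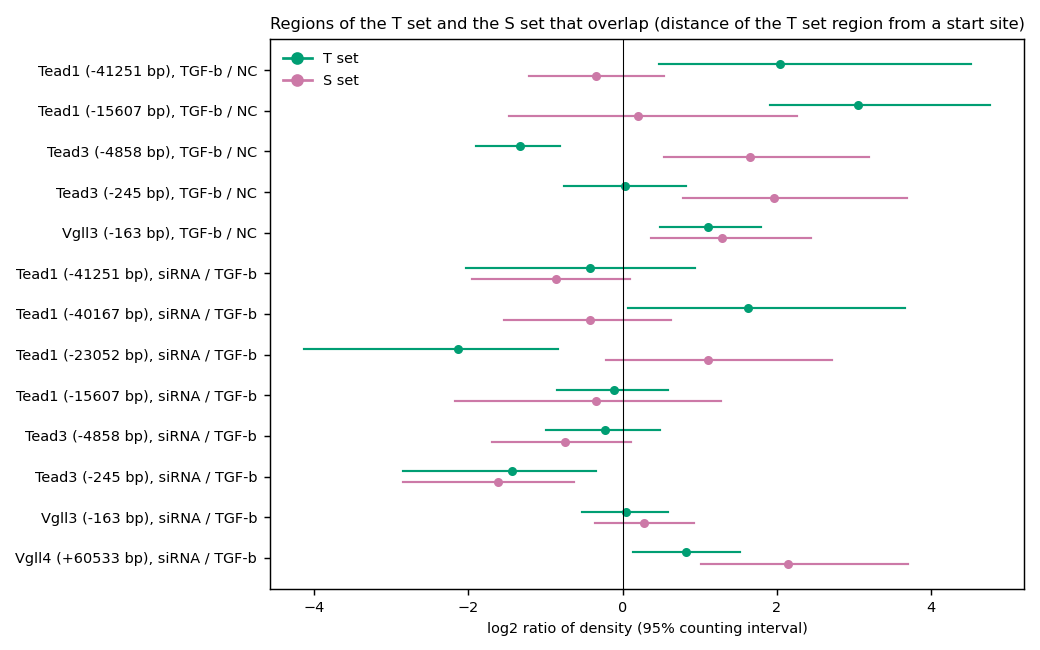
Log2 ratio of density with its 95% counting interval in the T set and the S set for each pair of overlapping member regions, in both contrasts. The Vgll3 promoter with TGF-b, at 1.11 and 1.29, and the Tead3 promoter with siRNA, at -1.43 and -1.61, have both points on the same side of 0, and the Tead3 intron with TGF-b, at -1.33 and 1.65, has them on opposite sides.

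Through the TGF-b library that both tables of a set share, 35 T set regions of 7 genes and 9 S set regions of 4 genes could be followed over 3 libraries. Because the library is shared, a high value in it raises the first ratio and lowers the second, and most of these regions had been called in it: 24 of the 35 were called with TGF-b and not in NC. In the T set, the interval with TGF-b lay above 0 in 18 regions and below 0 in 1, and with siRNA above 0 in 3 and below 0 in 14. Both excluded 0 in 11 regions, 5 of Tead1, 3 of Wwtr1, 2 of Vgll4 and 1 of Tead4, all higher with TGF-b and lower with siRNA. That is 31.4% of the 35, against 17.6% of all 58660 T set regions followed in the same way, and among those called with TGF-b and not in NC it is 9 of 24, or 37.5%, against 21.7%. After centring, 21 of the 35 were so, or 60% against 42.5%, among them regions of Tead2 and Vgll3 as well. Members may share a window, and no test was made of this difference. Besides those given above, they were the Tead1 introns at chr7:112353728-112353830 with 10, 25 and 6 reads, chr7:112376430-112376532 with 0, 12 and 2 reads and chr7:112468007-112468122 with 3, 26 and 1 reads. Those of Vgll4 were chr6:114812041-114812218 with 2, 11 and 1 reads and chr6:114906605-114906714 with 4, 13 and 2 reads. Of the 9 S set regions, 1 had both intervals off 0, the Tead3 promoter, or 11.1% against the 13.1% of all S set regions that were higher with TGF-b and lower with siRNA.

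The rest of the pathway was taken from lists chosen with earlier results known. Of 21 Hippo regulators, among them the kinases Stk3 and Lats1 and the angiomotins, 20 had 169 T set regions for TGF-b against NC, with 25 at least 2-fold higher, 72 at least 2-fold lower, or 14.8% and 42.6% against 17.3% and 42.1%, and a median of -0.74, near the -0.65 of all regions. The 99 regions of the YAP, TAZ, TEAD and VGLL genes had a median of -0.04. With siRNA in the T set, 62 of 145 regulator regions were at least 2-fold higher and 19 at least 2-fold lower, or 42.8% and 13.1% against 49.7% and 16.2% of all regions, with a median of 0.47 against 0.97. In the S set 6 and 10 of 34 were so with TGF-b, or 17.6% and 29.4% against 17.4% and 26.7%, and 7 and 8 of 38 with siRNA, or 18.4% and 21.1% against 15.1% and 27.8%. The S set medians were -0.12 and 0.22, against -0.20 and -0.21 over all regions. The densest regulator regions with TGF-b against NC were, in the T set, a pair in an intron of Wwc2 with overlapping windows, with 104 and 99 reads in NC and 54 and 52 with TGF-b, and, in the S set, the promoter of Stk3, with 10 and 35 reads, a log2 ratio of 1.16 (0.26 to 2.25), and an intron of Mob1b with 11 and 25 reads. With siRNA they were, in the T set, the 5' UTR of Amotl2, with 84 and 30 reads and a log2 ratio of -0.97 (-1.60 to -0.41), and the promoter of Taok2 with 58 and 44 reads, and, in the S set, the promoters of Stk3 with 35 and 42 reads and Taok2 with 24 and 26.

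Of 20 genes known as YAP and TAZ targets, 19 had 252 T set regions for TGF-b against NC, with 29 at least 2-fold higher, 110 at least 2-fold lower and a median of -0.82. Those shares are 11.5% and 43.7%, against 17.3% and 42.1% of all regions, whose median was -0.65. With siRNA 99 of 226 were at least 2-fold higher and 42 at least 2-fold lower, or 43.8% and 18.6% against 49.7% and 16.2%, with a median of 0.77 against 0.97. In the S set 5 and 15 of 50 were so with TGF-b, or 10.0% and 30.0% against 17.4% and 26.7%, and 10 and 10 of 55 with siRNA, or 18.2% of each against 15.1% and 27.8%. The medians of these S set regions were -0.39 and -0.07. The densest target regions in the T set were an exon and the promoter of Ccn2, the matricellular target of both coactivators. The exon had 150, 115 and 54 reads in NC, TGF-b and siRNA, giving log2 ratios of -0.50 (-0.85 to -0.15) and -0.59 (-1.07 to -0.14), and the promoter had 109, 96 and 29, with log2 ratios of -0.28 (-0.67 to 0.12) and -1.21 (-1.84 to -0.65). Unlike the promoters of Wwtr1 and Tead1, these were not higher with TGF-b on the authors' scale, although all were lower with siRNA. After centring the ratios of Ccn2 with TGF-b were 0.15 (-0.20 to 0.50) for the exon and 0.38 (-0.02 to 0.77) for the promoter. The densest target regions of the S set were introns of Rbms3, with 23 and 19 and with 26 and 14 reads for NC and TGF-b, and, with siRNA, the promoter of Ankrd1 with 17 and 28 reads and an intron of Rbms3 with 14 and 23.

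The pattern of the Wwtr1 promoter was shared by many genes. Among 7295 T set regions of 6269 genes within 3 kb of a start site, present in both tables and with at least 20 reads in 1 library, the 3 genes nearest to its pair of log2 ratios were Rab14, with 30, 47 and 18 reads, Uba6, with 19, 29 and 11, and Rock2, with 26, 40 and 15. Their distances, over 2 log2 ratios from 3 libraries, were 0.0073, 0.0106 and 0.0222, and 808 genes lay within 0.5.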

How the data were processed

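CUT&Tag was measured in 6 libraries of mouse primary cardiac fibroblasts, 1 per group, so no replicates exist and no test was made. The deposited tables hold, for the merged peaks of a pair of libraries, a normalised read density, which is a coverage signal that the authors computed per region and rescaled between both libraries with a line in the mean log2 density. Library size does not enter them. The study's methods name GRCm39 and Bowtie2, whereas the submitters' processing notes name mm10 and BWA 0.7.12. Of the 22 transcripts assigned to members, 0 start where GRCm38 has them, so positions were taken as GRCm39. Columns with the authors' own fold changes and p-values were not used.

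Undoing the line gave whole reads, within 0.1 read, in 99.97 to 99.99% of regions and in all member regions. Reads were recovered only to give depth and counting intervals, and the recovery was tested on simulated data. Log2 ratios are those of the deposited densities. Each ratio carries a 95% Wilson interval, taken on the fraction of a region's reads that came from the later library and shifted by the line, which covers counting error only, since PCR copies are not independent molecules. A median has its 95% rank interval, which counts regions with overlapping windows as separate and so can be too narrow. It describes the spread of regions within 1 pair of libraries and not that between cultures. The floor for libraries with 0 reads was 3 reads in a library. Regions past 2-fold were counted beside the share of all regions past 2-fold in that table.

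Members and lists were chosen with earlier results of these data known. For every member the text names, in each set, the densest region within 3 kb of a start site, the densest region anywhere, regions in both tables whose intervals exclude 0 in both, and regions of the sets that overlap by at least 1 bp. Other regions given with values were chosen after their values were seen. Densities of different tables were rescaled separately and are compared only within a table. The motifs GGAATG (TEAD) and TGANTCA (AP-1) and the CArG box were searched on both strands of the RefSeq promoters of GRCm38.p6. Python 3.11.15, pandas 2.3.3, numpy 2.4.6, scipy 1.17.1 and matplotlib 3.10.9 were used. Alternatives changed the rescaling, centring, pseudocount (0.1 read), floor, fold threshold, distance and density. Leaving out Tead1, keeping 1 region per group of overlapping windows and keeping regions whose annotation names the gene were added after seeing the data.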

Additional observations from a re-analysis of the deposited data

Results flagged for a closer look

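Member regions differed in direction between the T set and the S set in 5 comparisons, none of which was tested, since each set has 1 library per group. When siRNA was added to TGF-b, member regions had a median log2 ratio of 0.297 in T set libraries and of -0.229 in S set libraries, over different regions. Both rank intervals include 0, at -0.18 to 0.76 and -0.75 to 0.63, and the T set median was -0.17 without the authors' rescaling and -0.67 after centring on all regions. At the Tead1 region 41251 bases upstream, TGF-b against NC gave 2.04 in the T set, from 2 and 10 reads, and -0.347 in the S set, from 19 and 22 reads, or 0.202 once the authors' rescaling was undone, the same sign as the T set. At the Tead3 intron 4858 bases upstream it gave -1.33 in the T set, from 94 and 38 reads, and 1.65 in the S set, from 5 and 27 reads, and these are the only pair here whose counting intervals both exclude 0 on the authors' scale. With siRNA, the Tead1 region 40167 bases upstream had 1.62 in the T set, from 3 and 8 reads, and -0.421 in the S set, from 16 and 11 reads. The Tead1 region 23052 bases upstream had -2.13 in the T set, from 23 and 3 reads, and 1.11 in the S set, from 5 and 11 reads. After centring both intervals of this Tead1 pair exclude 0 as well, at -3.10 (-5.10 to -1.81) and 1.33 (0.0009 to 2.92).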

How the results depend on the processing

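Undoing the authors' rescaling, a pseudocount of 0.1 read, the floor of 3 reads and 1 region per group of overlapping windows left all 12 medians and counts within their spread or within 1.5 times, although without the rescaling the medians changed sign to 0.09 (S set, TGF-b) and -0.17 (T set, siRNA). Centring on all regions gave T set medians of 0.615 with TGF-b and -0.674 with siRNA, with 13 lower regions with TGF-b and 11 higher and 31 lower with siRNA. Within 10 kb of a start site, the T set counts were 7 higher and 9 lower with TGF-b and 9 higher and 5 lower with siRNA, and the S set had a median of 1.24, a turn of sign, and 0 lower regions with TGF-b and 0 higher with siRNA. Above the median density, the T set had 17 lower with TGF-b and 16 higher with siRNA, and the S set 0 lower with TGF-b and 1 higher with siRNA. Without Tead1, the T set had 9 higher and 17 lower with TGF-b and 15 higher and 8 lower with siRNA, and the S set 1 higher with siRNA, as it did where the annotation names the gene. At 1.5-fold the S set had 4 higher and 4 lower with siRNA. At 4-fold the T set had 9 higher and 9 lower with TGF-b and 10 higher and 7 lower with siRNA, and the S set 0 and 3 with TGF-b and 1 and 0 with siRNA. Why these counts moved was not tested beyond the smaller number of regions that each restriction keeps. Of 67 named ratios, centring moved 12, the floor 2 and undoing the rescaling 1 beyond their intervals. No paired analysis was possible because each group has 1 library. Depth, at about 10 reads in a typical region, limits single ratios.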
